A study of Mus musculus with 15 samples.

Results

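Chemokines are small secreted proteins that direct the movement of leukocytes, and their receptors are membrane proteins that couple to inhibitory G proteins. The genes described here are the mouse chemokine ligands and receptors, chosen by gene symbol from the deposited tables (Ccl, Cxcl, Cx3cl1, Xcl1 and Pf4 as ligands, Ccr, Cxcr, Cx3cr1, Xcr1, Ccrl2 and Ackr1 to Ackr4 as receptors). Described are 62 of the 24499 genes listed, 40 ligands and 22 receptors. Of these, 44 had enough reads to be tested, 26 ligands and 18 receptors.

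In liver, chemokines come from hepatocytes, resident macrophages (Kupffer cells), stellate cells, endothelium and the leukocytes themselves. A ligand binds a receptor on a passing cell, the receptor signals through G proteins, phosphoinositide 3-kinase and Rac, and the cell moves up the ligand's gradient. Ccr2 and Cx3cr1 are known from monocytes, Cxcr2 from neutrophils, and Ccr7, Cxcr3, Cxcr5 and Cxcr6 mainly from lymphocytes and dendritic cells, while the atypical receptors (Ackr1 to Ackr4) take up ligands without classical signalling.

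The 15 libraries were each made from total liver RNA, and the animals were C57BL/6 males, all adult. CCl4 (carbon tetrachloride) becomes toxic when hepatocytes metabolise it, and repeated doses scar the liver. The arm without CCl4 is labelled OO, a name the labels do not spell out. Ethanol (EtOH) was fed through a gastric tube to model an acute injury on a chronic one.

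The groups taken at day 0 were CCl4 (libraries 3 and 4), which received 0.2 ml/kg CCl4 by intraperitoneal injection 2 times a week for 6 weeks, and OO (libraries 1 and 2). At day 20 they were CCl4 EtOH (libraries 18, 19 and 20), CCl4 chow (libraries 16 and 17), OO EtOH (libraries 13, 14 and 15) and OO chow (library 12). The CCl4 animals of day 20 had the same first course and then continued CCl4 at 0.5 of the dose. Ethanol animals received up to 25 g/kg per day for 3 weeks. At day 23 there were OO EtOH (library 6) and OO chow (library 5), 1 library each. Their titles place them in another sub-study than the day 20 libraries, so day and sub-study cannot be told apart where library 5 replaces library 12. The labels pair every ethanol arm with a high-fat diet and every control arm with chow, so ethanol and diet cannot be told apart.

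Gene counts ran from 10347844 to 28843258 per library. Levels are given as CPM, read counts scaled to library size with TMM factors, and a gene is called at a Benjamini-Hochberg adjusted p under 0.05 over all 14778 genes tested by edgeR's quasi-likelihood test, fitted on all 15 libraries. Nothing in the labels says that libraries of a group came from separate animals, so the p-values measure the spread between these libraries. Where livers are counted or compared below, libraries are meant. Library 12, the 1 control of 3 comparisons, and library 6 stood apart. Their 10 exocrine pancreas markers summed to 147 CPM and 154 CPM, against 5.52 to 13.97 CPM in the other 13 libraries, and chemokine calls that rest on library 12 are given also with library 5 in its place. The 5 hepatocyte markers summed to between 48610 and 79280 CPM over the 15 libraries. In whole tissue, fewer cells of a type and less RNA per cell cannot be told apart, and the same holds for more cells and more RNA per cell.

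Many of the genes lie in clusters. On chromosome 11 lie 12 ligands, on chromosome 5 another 12, and on chromosome 9 13 receptors, where Ccr1 and Ccr2 lie within 151 kb (mm10, chr9:123962124-124113557). Upstream sequences of 47 of the 62 genes were found in RefSeq (GRCm38.p6), as 56 windows of 250 bases before to 50 bases after a transcript start. An NF-kB pattern (GGG, any 2 bases, then TTTCC, on either strand) was in the windows of 6 members (Ccl9, Ccl20, Ccr3, Cxcl1, Cxcl2 and Cxcl3), against 1.63% of all 32851 windows. An interferon-response pattern (GAAA, any 2 bases, then GAAA, on either strand) was in those of 3 members (Ccl19, Cxcl10 and Cxcl14), against 3.44% of all windows. No window of these 9 genes held both patterns. Shown are 100 bases upstream of the neutrophil attractants Cxcl1, Cxcl2 and Cxcl3, which lie in 1 cluster of 147 kb on chromosome 5, and of Cxcl10 and Cxcl14, with the matching bases in capitals. They are Cxcl1 (chr5:90891115-90891214, plus strand), Cxcl2 (chr5:90903769-90903868, plus strand), Cxcl3 (chr5:90785971-90786070, plus strand), Cxcl10 (chr5:92349040-92349139, minus strand) and Cxcl14 (chr13:56296662-56296761, minus strand). A match describes the letters and does not show binding.
Cxcl1: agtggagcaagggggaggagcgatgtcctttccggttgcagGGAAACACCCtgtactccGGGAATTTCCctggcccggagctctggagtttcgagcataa
Cxcl2: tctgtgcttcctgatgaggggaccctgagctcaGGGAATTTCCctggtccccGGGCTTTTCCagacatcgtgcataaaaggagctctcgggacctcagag
Cxcl3: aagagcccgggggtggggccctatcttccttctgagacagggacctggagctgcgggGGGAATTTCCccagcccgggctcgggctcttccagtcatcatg
Cxcl10: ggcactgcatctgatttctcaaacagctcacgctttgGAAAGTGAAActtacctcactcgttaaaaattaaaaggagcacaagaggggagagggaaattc
Cxcl14: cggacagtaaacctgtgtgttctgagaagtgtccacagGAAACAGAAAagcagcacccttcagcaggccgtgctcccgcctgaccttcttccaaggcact

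A few ligands made up most of the chemokine RNA of these livers. Scaled to exon length, the neutrophil attractant Cxcl1 had the highest median over the 15 libraries, 31.5 CPM per kb. Cxcl12, the ligand of Cxcr4, had a median of 26.9 CPM per kb. The Ccr1 ligand Ccl9 had one of 25.8 CPM per kb. The ranges of these 3 over the libraries overlapped, so their order is not beyond their spread. Ccl6, also a ligand of Ccr1, came next at 11.7 CPM per kb, ahead of Cxcl16, the membrane-bound ligand of Cxcr6, at 3.77 CPM per kb. Cxcl12, Ccl9, Cxcl1 and Ccl6 held between 74.9% and 92.1% of the summed ligand CPM of a library.

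Receptors were lower. Their median levels per length were highest for Cxcr6 (1.85 CPM per kb), Ackr2 (1.39 CPM per kb), Ackr4 (1.23 CPM per kb) and Ccr2 (1.1 CPM per kb), with overlapping ranges. This order is over all 15 libraries, and in the CCl4 livers of day 20 Ccr2 averaged 3.27 CPM per kb with EtOH and 5.15 CPM per kb with chow, and Cx3cr1 3.53 and 3.72 CPM per kb, above Cxcr6 at 1.76 and 2.15 CPM per kb. The summed level of the receptors was 69.2 to 113 CPM in the 5 CCl4 libraries of day 20 and 25.9 to 55.8 CPM in the other 10 libraries, with library 12 the highest of these. Of this sum, Ccr2, Cx3cr1 and Ccr1 held 51.6% to 64.1% in those 5 libraries and 10.1% to 37% in the other 10. Ligands summed to between 379 and 554 CPM over the 15 libraries, and here the CCl4 libraries of day 20 (481 to 538 CPM) lay within the range of the others. Another 18 genes were too low to test, with at most 15 reads in a library. Among them were Cxcl3, Ccl20, Ccl17, Ccl22, Ccr4, Ccr6 and Ccr8. Ccl21a, Ccl21b, Ccl21c and Ccl27b were listed at 0 in every library, and since reads that aligned to several places were not counted, levels of these near-identical copies are uncertain, as is that of Ccl27a.

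**Figure D1:**
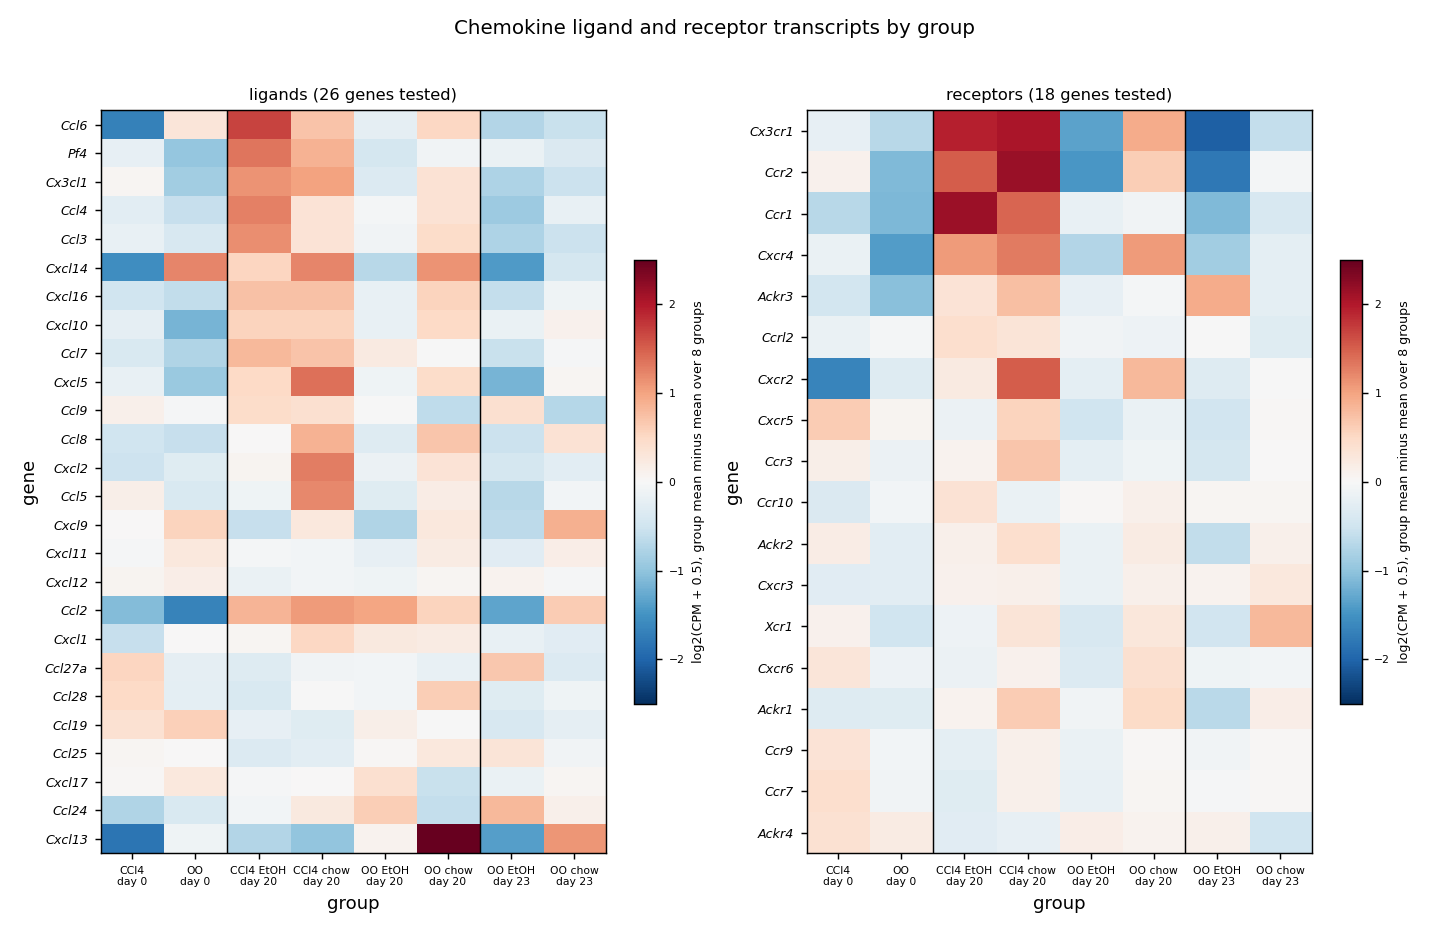
Each row is a tested gene, ligands on the left and receptors on the right, and each column a group, with days running left to right. Colour gives the group mean of log2(CPM + 0.5) minus the mean over the 8 groups, and rows are ordered by the difference between CCl4 EtOH and OO EtOH at day 20. Cx3cr1, Ccr2 and Ccr1 head the receptors in both CCl4 groups of day 20, and Cxcl13 is darkest in the single OO chow library of day 20.

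Of the 44 genes tested, 18 (40.9%) differed somewhere among the 8 groups by edgeR's joint test, against 28.1% of all genes. They were 13 ligands (Ccl2, Ccl3, Ccl4, Ccl5, Ccl6, Ccl7, Ccl24, Cx3cl1, Cxcl5, Cxcl13, Cxcl14, Cxcl16 and Pf4) and 5 receptors (Ccr1, Ccr2, Cx3cr1, Cxcr2 and Cxcr4). The most abundant ligands Cxcl1, Cxcl12 and Ccl9 were not among them.

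The comparison with the most libraries set CCl4 against OO animals, both under ethanol, at day 20. Here 4 receptors of monocytes and other leukocytes and 7 ligands were higher in CCl4 EtOH livers, and 1 ligand was lower. That is 12 of 44 genes (27.3%), against 23.7% of all genes. In the higher direction it is 11 genes, against 12.7% of all genes, and in the lower direction 1 gene, against 11% of all genes. The median log2 change was 0.54 over the 18 receptors and 0.34 over the 26 ligands, against -0.04 over all genes.

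Cx3cr1, the receptor of the tethered chemokine Cx3cl1 on monocytes, stood at 20.2, 14.5 and 13.0 CPM in CCl4 EtOH livers, against 0.991, 2.09 and 0.708 CPM in OO EtOH livers. The lowest CCl4 library was well above the highest OO library. The log2 change was 3.56 ± 0.35 (SE; edgeR adjusted p = 9.37e-05), or 11.8-fold, and 4.23 on the log2 scale without library 14. Ccr2, which binds Ccl2 and lets inflammatory monocytes leave the marrow, was at 24.9, 14.0 and 27.4 CPM in CCl4 EtOH livers, against 2.77, 3.24 and 1.24 CPM in OO EtOH livers. Its log2 change was 3.16 ± 0.39 (SE; edgeR adjusted p = 0.000288), again without overlap.

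Ccr1, a receptor for Ccl3, Ccl5, Ccl6 and Ccl9, was at 9.49, 10.5 and 12.4 CPM in CCl4 EtOH livers, against 1.78, 1.83 and 1.59 CPM in OO EtOH livers. Both sets were tight and far apart, with a log2 change of 2.62 ± 0.32 (SE; edgeR adjusted p = 0.000261). Cxcr4, the receptor of Cxcl12, was at 4.56, 3.86 and 4.46 CPM in CCl4 EtOH livers, against 0.793, 1.31 and 0.620 CPM in OO EtOH livers. Its groups did not overlap either, and the log2 change was 2.18 ± 0.29 (SE; edgeR adjusted p = 0.000471). These 4 receptor calls held without any single library.

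**Figure D2:**
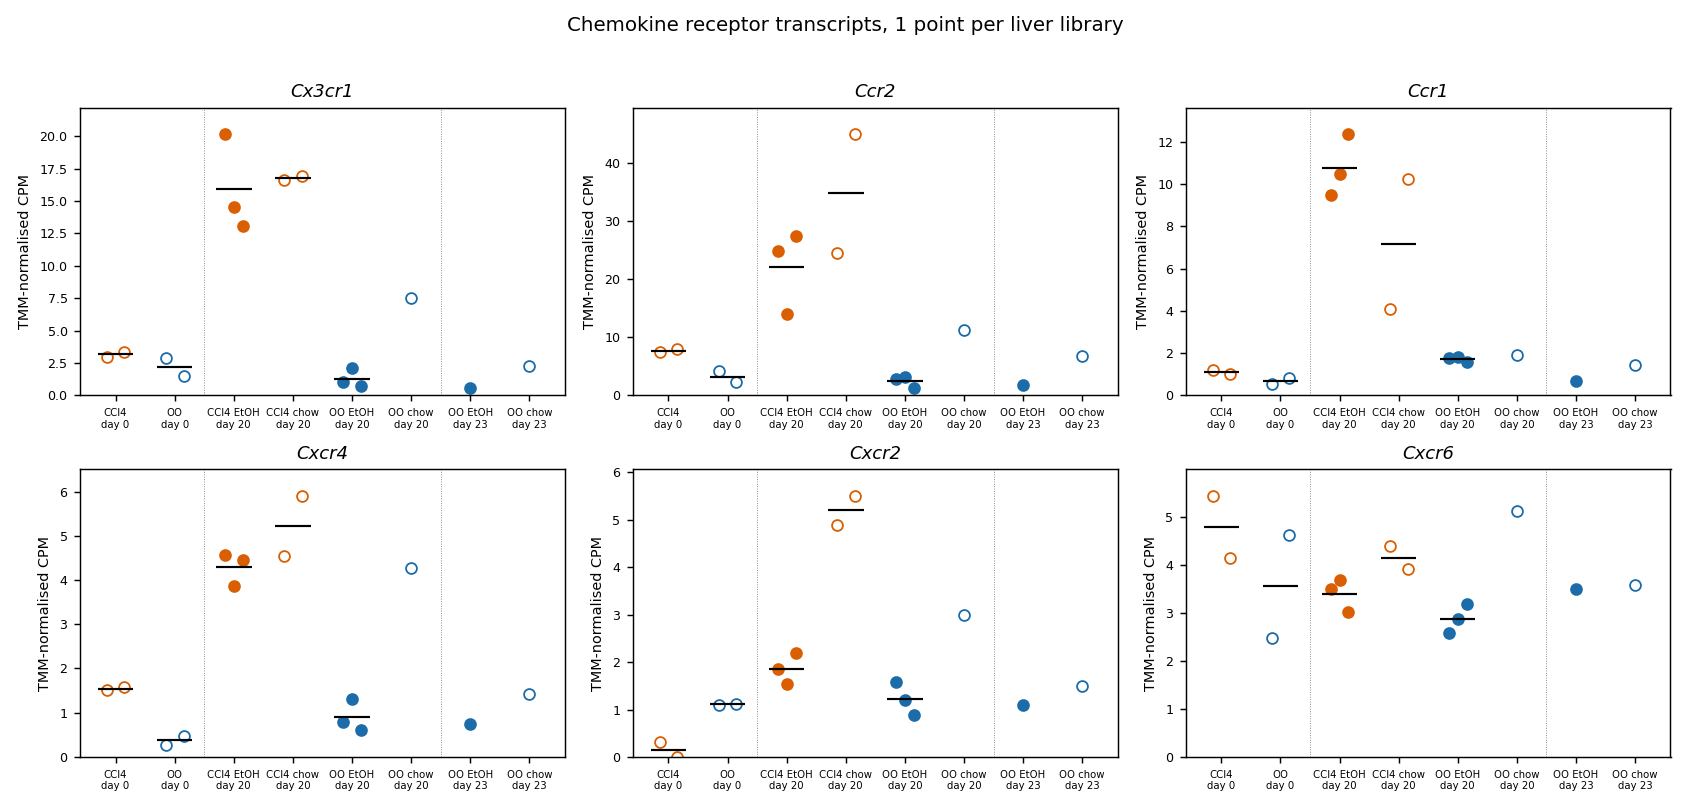
Each point is a library and each panel a receptor, with TMM-normalised CPM on a linear axis from 0. Orange marks CCl4 groups and blue OO groups, filled points are ethanol arms and open points the others, and the bar is the group mean where a group has more than 1 library. For Cx3cr1, the CCl4 EtOH livers sit at 13.0 to 20.2 CPM and the OO EtOH livers of day 20 at 0.708 to 2.09 CPM, while Cxcr6 overlaps between these groups.

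Among the ligands in the same comparison, Ccl6 stood at 81.1, 87.2 and 43.8 CPM in CCl4 EtOH livers, against 20.9, 15.8 and 16.6 CPM in OO EtOH livers. Library 20 was the lowest of the CCl4 livers, and it too lay above the OO livers, so the groups were apart, and the log2 change was 2.00 ± 0.32 (SE; edgeR adjusted p = 0.00131). Cxcl16 was at 25.4, 20.0 and 18.4 CPM in CCl4 EtOH livers, against 11.2, 11.6 and 9.56 CPM in OO EtOH livers, a log2 change of 0.98 ± 0.15 (SE; edgeR adjusted p = 0.0011). Part of its exons lies within Zmynd15 on the other strand, and since the sources do not give the strand use of the counting, reads there cannot be told apart. Pf4, platelet factor 4 of platelets and some macrophages, was at 4.51, 4.41 and 6.73 CPM in CCl4 EtOH livers, against 0.991, 1.31 and 1.15 CPM in OO EtOH livers, a log2 change of 2.15 ± 0.33 (SE; edgeR adjusted p = 0.00105).

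The other ligand calls rested on more of the libraries. Ccl3 and Ccl4, macrophage inflammatory proteins, rose by 1.79 ± 0.45 and 2.02 ± 0.56 on the log2 scale (SE; edgeR adjusted p = 0.0147 and 0.0237) at levels of 1.29 to 2.40 CPM and 1.53 to 1.94 CPM in CCl4 EtOH livers. Cx3cl1, the ligand of Cx3cr1, was at 4.43, 3.07 and 2.69 CPM in CCl4 EtOH livers, against 1.98, 0.731 and 0.354 CPM in OO EtOH livers, a log2 change of 1.79 ± 0.49 (SE; edgeR adjusted p = 0.0224) that was 2.57 without library 13. Cxcl14, a CXC chemokine of epithelia, rose by 1.39 ± 0.42 on the log2 scale (SE; edgeR adjusted p = 0.0347). Ccl24, an eosinophil attractant that binds Ccr3, was the 1 gene that fell, at 2.24, 1.72 and 2.61 CPM in CCl4 EtOH livers, against 3.77, 4.18 and 3.36 CPM in OO EtOH livers (log2 change -0.79 ± 0.24, SE; edgeR adjusted p = 0.0359). Each of these 5 was lost without some libraries. Without library 15 or without library 18, 7 of the 12 calls were made, with Ccl3 at an edgeR adjusted p of 0.0552 and 0.0617, Ccl4 at 0.0781 and 0.0662, Cx3cl1 at 0.072 and 0.0869, Cxcl14 at 0.0853 and 0.0983, and Ccl24 at 0.0573 and 0.101. Cx3cl1 and Cxcl14 were also lost without library 14 (0.0793 and 0.115), Ccl4 without libraries 13 and 20 (0.0525 and 0.0589), Cxcl14 without library 20 (0.0792), and Ccl24 without libraries 13, 14 and 19 (0.0518, 0.11 and 0.0931).

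Several ligands of the raised receptors were not called. Ccl2, the main ligand of Ccr2, was at 6.03, 3.31 and 5.30 CPM in CCl4 EtOH livers, against 7.53, 6.06 and 3.19 CPM in OO EtOH livers, with full overlap (log2 change -0.19, 95% interval -0.92 to 0.54). Cxcl12 was at 186, 218 and 196 CPM in CCl4 EtOH livers, against 242, 213 and 174 CPM in OO EtOH livers (log2 change -0.07, 95% interval -0.45 to 0.31). Cxcl1 was at 40.9, 67.2 and 81.7 CPM in CCl4 EtOH livers, against 194, 27.5 and 62.6 CPM in OO EtOH livers. The OO livers alone spanned the CCl4 livers on both sides, and the log2 change of Cxcl1 was -0.58 (95% interval -1.74 to 0.58). Its receptor Cxcr2 was at 1.86, 1.53 and 2.19 CPM in CCl4 EtOH livers, against 1.59, 1.2 and 0.885 CPM in OO EtOH livers, overlapping slightly (log2 change 0.60, 95% interval -0.24 to 1.44).

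**Figure D3:**
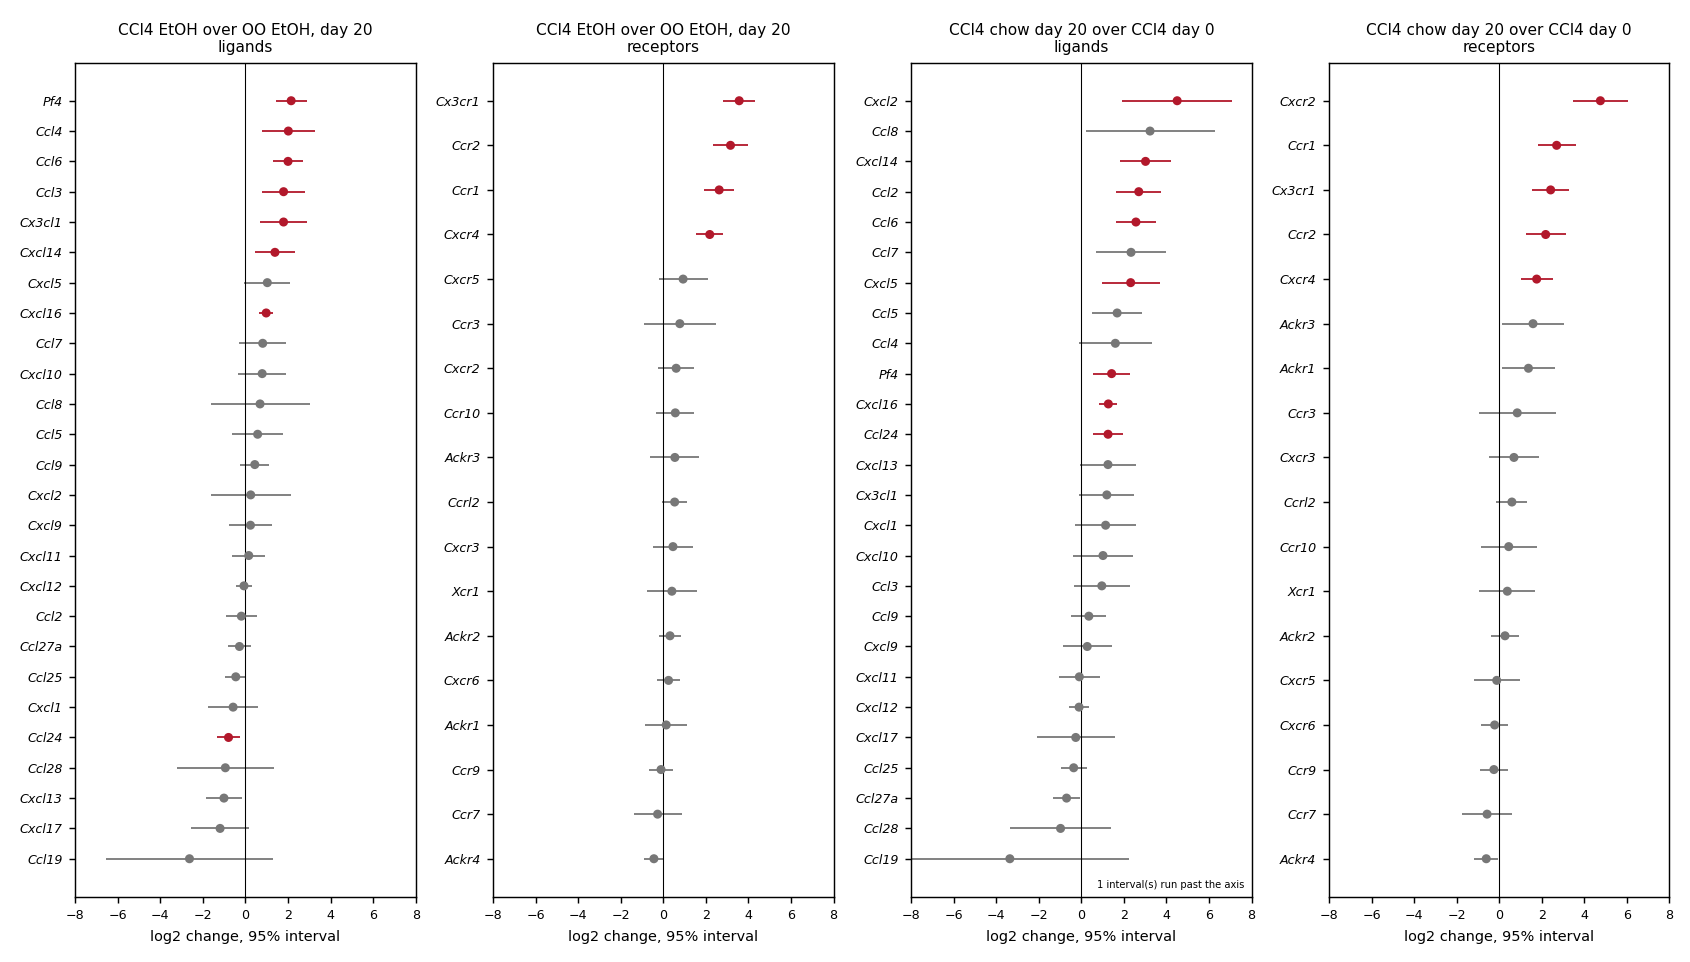
Log2 changes of the tested ligands and receptors with 95% intervals, for CCl4 EtOH over OO EtOH at day 20 (2 left panels) and CCl4 chow at day 20 over CCl4 at day 0 (2 right panels). Red marks genes called by edgeR, grey the others. Cx3cr1 heads the receptors on the left at 3.56 and Cxcr2 on the right at 4.75.

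Markers of several cell types differed in the same direction as the raised receptors. In CCl4 EtOH against OO EtOH livers, 8 of 9 monocyte and macrophage markers were called higher and their sum was 1187 to 1523 CPM, against 287 to 382 CPM. All 8 neutrophil markers were called higher, with a sum of 57.2 to 165 CPM in CCl4 EtOH livers, against 12.8 to 24.7 CPM in OO EtOH livers, where Ly6g was at 0 in library 15. Of 6 Kupffer cell markers 2 were called higher and 1 lower, and of 8 T and NK cell markers tested none was called. For platelets 1 of 2 markers tested was called higher, with sums of 5.40 to 8.28 CPM in CCl4 EtOH livers, against 3.19 to 3.77 CPM in OO EtOH livers, and 3 of the 5 platelet markers were too low to test. Dendritic cell markers were called higher for 2 of 5 (sum 28.9 to 43.7 CPM in CCl4 EtOH livers, against 11.5 to 14.3 CPM in OO EtOH livers), and those of stellate cells and myofibroblasts for 3 of 6 (379 to 512 CPM, against 197 to 243 CPM). Of 5 cholangiocyte markers Spp1 and Epcam were called higher, and the sum of the list was 386 to 597 CPM in CCl4 EtOH livers, against 46 to 75 CPM in OO EtOH livers. The median log2 change over these 5 markers was 0.56, smaller than the gap between the sums, so the sum does not describe each marker. The part of cell numbers in the receptor and ligand changes was not tested.

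**Figure D4:**
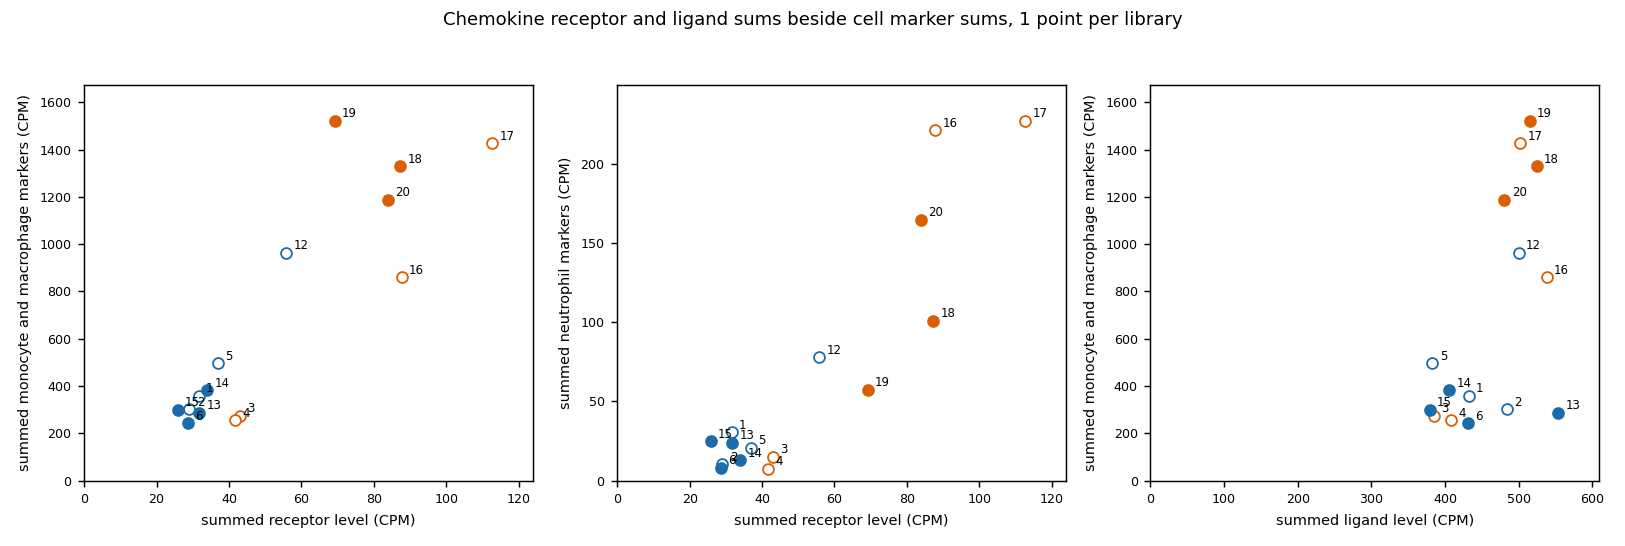
Each point is a library, with its number. The x axes give the summed CPM of the receptors (left and middle) or ligands (right), and the y axes the summed CPM of monocyte and macrophage or of neutrophil markers, with colours and fills as in the plot of receptors by library (orange CCl4, blue OO, filled ethanol). The 5 CCl4 libraries of day 20 lie at 69.2 to 113 CPM of receptors, and library 12 at 55.8 CPM is nearest to them. Ccr2, Cx3cr1 and Ccr1 held 51.6% to 64.1% of the receptor sum in those 5 libraries.

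The second comparison with a broad response set CCl4 chow livers at day 20 against CCl4 livers at day 0. Its 4 libraries are none of those above. By the titles and labels, sub-study, chow arm and continued CCl4 changed along with the day. Here these cannot be told apart from time. Of 44 genes, 13 (29.5%) were called, against 11.5% of all genes. They were higher at day 20, against 7.27% of all genes in that direction, and 0 were lower, against 4.2% of all genes. They were 5 receptors (Ccr1, Ccr2, Cx3cr1, Cxcr2 and Cxcr4) and 8 ligands (Ccl2, Ccl6, Ccl24, Cxcl2, Cxcl5, Cxcl14, Cxcl16 and Pf4). The median log2 change was 0.64 over receptors and 1.23 over ligands, against 0.02 over all genes. In all, 9 genes were called both here and in CCl4 EtOH against OO EtOH livers, 75% of the 12 called there and 69.2% of the 13 called here. Ccl24 was the 1 of them with opposite directions. The same overlap over all genes was not counted, so whether these shares are high for chemokine genes is not known.

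The receptors of monocytes moved here too. Ccr1 was at 4.10 and 10.2 CPM in CCl4 chow livers of day 20, against 1.19 and 0.989 CPM in CCl4 livers of day 0 (log2 change 2.70 ± 0.41, SE; edgeR adjusted p = 0.00278). Cx3cr1 was at 16.6 and 16.9 CPM at day 20, against 2.94 and 3.36 CPM at day 0, and Ccr2 at 24.6 and 45.0 CPM, against 7.45 and 7.91 CPM. In all 3 the groups were apart, though the 2 libraries of day 20 differed by more than the 2 of day 0 for Ccr1 and Ccr2. The log2 change was 2.42 ± 0.39 for Cx3cr1 and 2.18 ± 0.43 for Ccr2 (SE; edgeR adjusted p = 0.00389 and 0.00969). The 9 monocyte and macrophage markers were all called higher, with a sum of 859 to 1426 CPM at day 20, against 256 to 275 CPM at day 0. The 6 Kupffer cell markers were also called higher, with a sum of 691 to 703 CPM at day 20, against 274 to 282 CPM at day 0. Their part in these changes was not tested.

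Cxcr2 and some of its ligands were also higher. Cxcr2, the receptor that brings neutrophils to sites of injury, had 4.90 and 5.51 CPM in CCl4 chow livers of day 20 (67 and 83 reads), against 0.313 and 0 CPM in CCl4 livers of day 0 (5 and 0 reads). The log2 change was 4.75 ± 0.59 (SE; edgeR adjusted p = 0.00114), with 4.02 without library 4. Without library 3 the fit gave 9.29, but the 1 day 0 library left then had 0 reads, so this value depends on the prior count and is no bound. Its ligand Cxcl5 rose by 2.32 ± 0.62 on the log2 scale (SE; edgeR adjusted p = 0.0351), at 1.97 and 2.85 CPM at day 20, against 0.313 and 0.692 CPM at day 0, and by 2.92 without library 4. Cxcl2 is another ligand of Cxcr2. Among the genes called here that had an upstream window, it was the 1 with 2 NF-kB patterns. Ccl2, Ccl24, Cxcl5 and Cxcl16 had no window and were not searched. Cxcl2 had 57 reads at day 20, mostly from library 17 (3.25 CPM, against 0.585 CPM in library 16), and 2 reads at day 0. This is a ratio of 25.9 with a counting interval of 6.84 to 219, which covers counting error alone, and edgeR gave an adjusted p of 0.0323. The call was lost by limma-voom with lane as a random block (limma adjusted p = 0.0937). There, and wherever the lane block is named below, the test and the lane term changed together and cannot be told apart. Cxcl1, with 2 patterns as well, was at 106 and 66.1 CPM at day 20, against 37.4 and 40.4 CPM at day 0, a log2 change of 1.14 that was not called (95% interval -0.30 to 2.58; edgeR adjusted p = 0.301). All 8 neutrophil markers were called higher, with a sum of 221 to 227 CPM at day 20, against 7.32 to 14.96 CPM at day 0, where Ly6g was at 0 in both libraries and Mpo and Elane in library 4. Of the stellate cell and cholangiocyte lists 1 marker each was called higher (Col1a1 and Spp1), and the part of these markers was not tested.

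Other ligands rose with them. Ccl6 was at 24.1 and 49.1 CPM in CCl4 chow livers of day 20, against 6.83 and 5.44 CPM in CCl4 livers of day 0 (log2 change 2.57 ± 0.42, SE; edgeR adjusted p = 0.00417). Ccl2 was at 6.58 and 4.85 CPM at day 20, against 0.626 and 1.19 CPM at day 0, and Cxcl14 at 10.9 and 8.63 CPM, against 1.75 and 0.494 CPM. In each case the days did not overlap, with log2 changes of 2.70 ± 0.48 for Ccl2 and 3.02 ± 0.55 for Cxcl14 (SE; edgeR adjusted p = 0.00611 and 0.00702). Cxcl16, at 21.9 and 19.7 CPM at day 20 against 8.27 and 9 CPM at day 0, rose by 1.27 ± 0.19 (SE; edgeR adjusted p = 0.00273). Ccl24 and Pf4 rose by 1.26 and 1.42 on the log2 scale (edgeR adjusted p = 0.0313 and 0.0436), and Pf4 was lost with lane as a random block (limma adjusted p = 0.0831). Cxcl12 was at 259 and 178 CPM at day 20, against 227 and 243 CPM at day 0, with overlap (log2 change -0.11, 95% interval -0.57 to 0.36). Ccl5, a T cell and NK cell product, missed the threshold (log2 change 1.68; edgeR adjusted p = 0.0667).

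With 2 libraries a group, many of these calls rested on single libraries. Ccr1, Cxcl16 and Cxcr2 were called whichever library was left out. There were 5 calls without library 3, 5 without library 4 and 7 without library 17. Pf4, Cxcl2, Cxcl5, Ccl24, Ccr2 and Cxcr4 were lost without library 3 (edgeR adjusted p from 0.101 to 0.265) and without library 4 (0.0796 to 0.184). Ccl2 and Cx3cr1 were lost without library 3 (0.0934 and 0.0644), and Ccl6 and Cxcl14 without library 4 (0.0597 and 0.0681). Without library 17, Ccr2, Ccl24, Cxcl2, Cxcl5, Cxcr4 and Pf4 were lost (0.0607 to 0.292), and without library 16 Ccl24 and Cxcl5 (0.111 and 0.0685). Sizes moved as well. Without library 17 the log2 change was 1.88 for Ccr1, 1.95 for Ccl6, 2.78 for Cxcl2 and 0.70 for Pf4, without library 16 it was 5.29 for Cxcl2, and without library 3 it was 4.28 for Cxcl14.

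**Figure D5:**
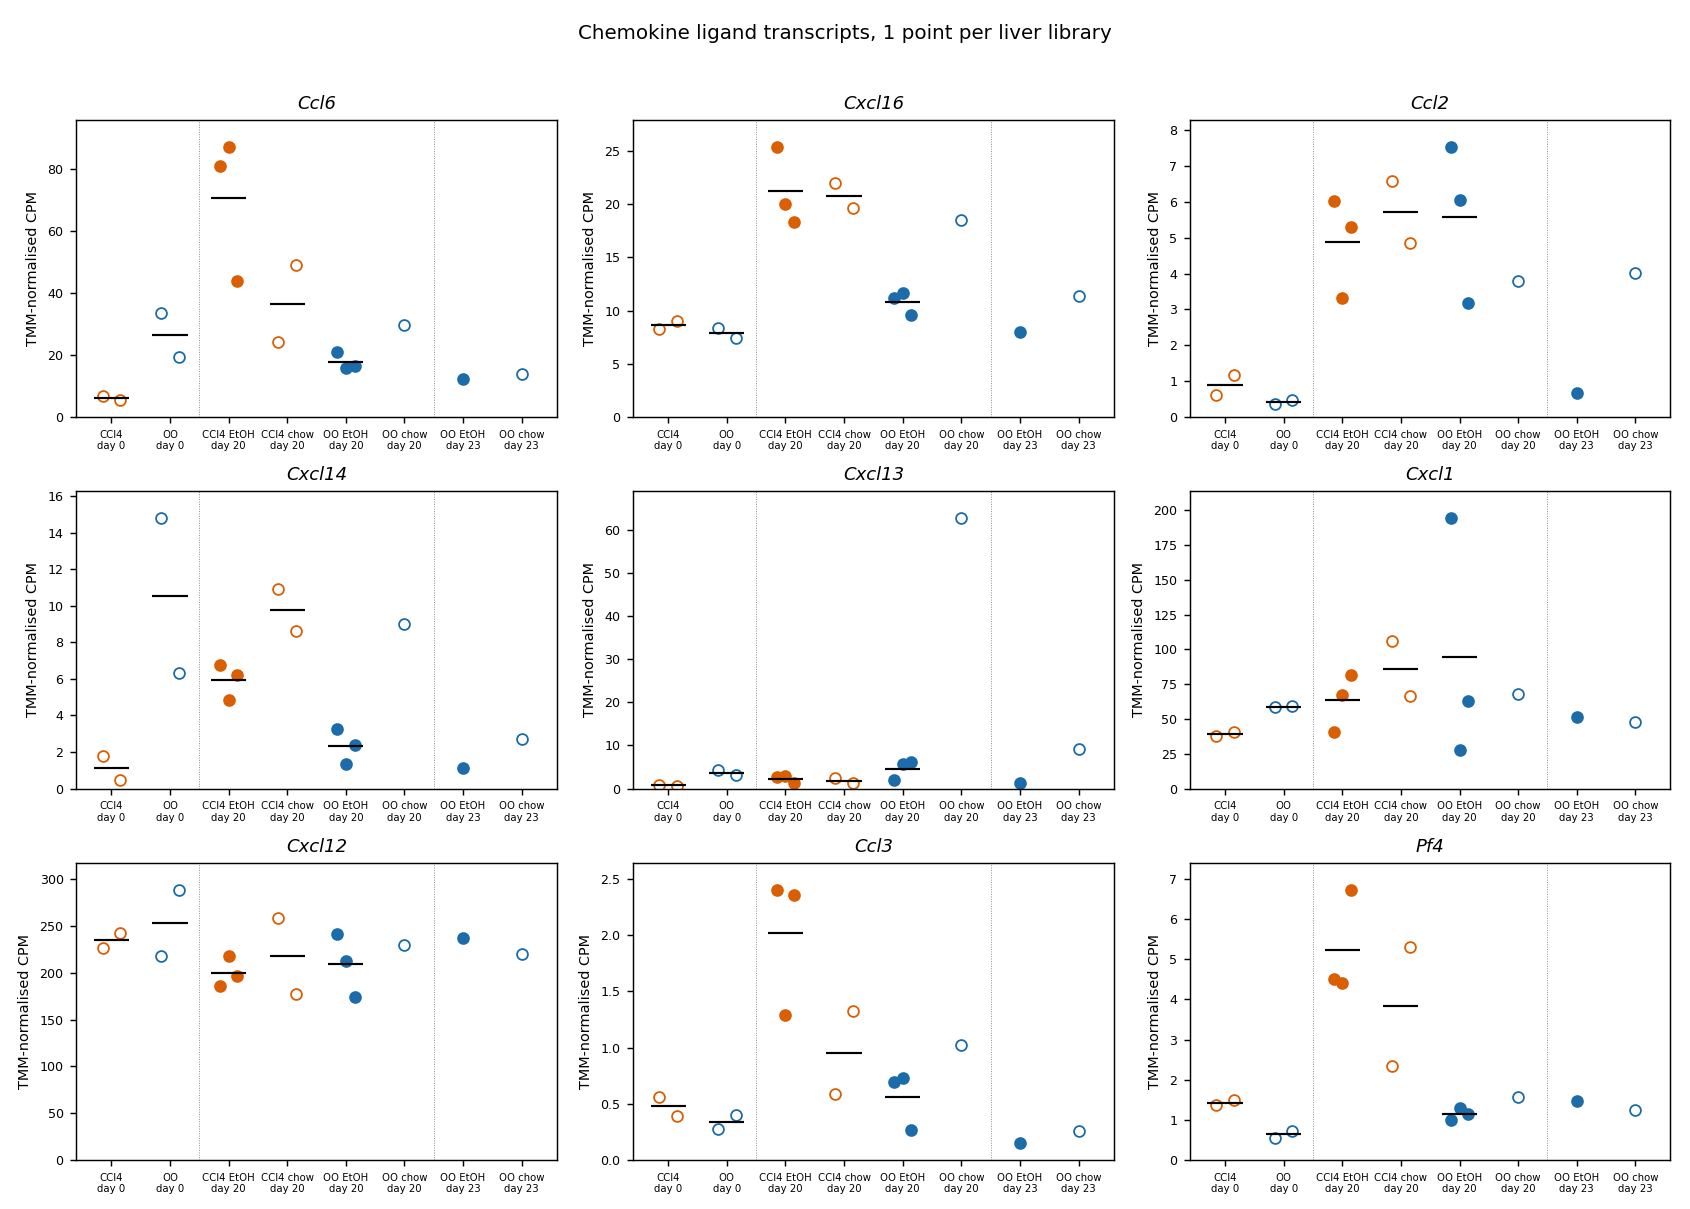
Each point is a library and each panel a ligand, with TMM-normalised CPM on a linear axis from 0 and colours, fills and bars as in the plot of receptors by library. Ccl6 and Cxcl16 sit highest in CCl4 groups of day 20, Cxcl13 reaches 62.7 CPM in library 12 and 9.10 CPM in library 5, and Cxcl12 stays between 174 and 289 CPM in every library.

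At day 0, after the CCl4 course and before ethanol, 3 of 44 genes (6.82%) were called between CCl4 and OO livers, against 2.06% of all genes. In CCl4 livers 2 were lower, against 1.11% of all genes, and 1 was higher, against 0.947%. Cxcl14 was at 1.75 and 0.494 CPM in CCl4 livers, against 14.8 and 6.31 CPM in OO livers, and Ccl6 at 6.83 and 5.44 CPM, against 33.7 and 19.2 CPM. Both fell without overlap, by 3.12 ± 0.56 for Cxcl14 and by 2.09 ± 0.42 for Ccl6 on the log2 scale (SE; edgeR adjusted p = 0.0145 and 0.03). Cxcr4 rose, at 1.5 and 1.58 CPM in CCl4 livers, against 0.275 and 0.479 CPM in OO livers (log2 change 1.99 ± 0.44, SE; edgeR adjusted p = 0.045).

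Some genes came close at day 0. Cxcl13, the B cell attractant that binds Cxcr5, was at 0.814 and 0.692 CPM in CCl4 livers, against 4.22 and 3.11 CPM in OO livers (log2 change -2.25; edgeR adjusted p = 0.0701). Cxcr2 had a log2 change of -2.53 (edgeR adjusted p = 0.0713), and Ccr2 one of 1.28 (edgeR adjusted p = 0.188), with CCl4 livers at 7.45 and 7.91 CPM, against 4.13 and 2.24 CPM in OO livers. The 3 calls were not stable. None was made without library 1 (edgeR adjusted p from 0.108 to 0.239) or without library 4 (0.146 to 0.23). Without library 3, Ccl6 and Cxcr4 were lost (0.184 and 0.206), while Cxcr2 was gained (0.0473), and without library 2 Cxcr4 was lost (0.119). Cxcl14 had a log2 change of -2.40 without library 1 and -4.39 without library 3. With lane as a random block Ccl6 and Cxcr4 were lost (limma adjusted p = 0.0865 and 0.0913). The CCl4 livers of day 0 are also the ones that day 20 was set against above, so the low values of Ccl6 and Cxcl14 there enter both comparisons. The same holds for the low values of Cxcr2, though it was not called at day 0 in the fit to all 15 libraries. Of the marker lists at day 0, 2 of 9 monocyte and macrophage markers were called lower and 1 higher, and 1 of 6 Kupffer cell markers lower. Monocyte and macrophage markers summed to 256 to 275 CPM in CCl4 livers, against 301 to 359.5 CPM in OO livers, and Kupffer cell markers to 274 to 282 CPM, against 507 to 561 CPM. Their part in these differences was not tested.

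In OO animals at day 20, ethanol livers were set against the chow liver, library 12. Of 44 genes 4 (9.09%) were called, against 3.64% of all genes, each of them lower with ethanol, against 2.42% of all genes. Cxcl13 was at 2.08, 5.59 and 6.20 CPM in OO EtOH livers, against 62.7 CPM in OO chow library 12, a log2 change of -3.74 ± 0.45 (SE; edgeR adjusted p = 0.0019). Cx3cr1 was at 0.991, 2.09 and 0.708 CPM in OO EtOH livers, against 7.51 CPM in library 12 (log2 change -2.48 ± 0.44, SE; edgeR adjusted p = 0.0118), and the change was -3.14 without library 14. Cxcr4 and Ccr2 fell by 2.17 and 2.18 on the log2 scale (edgeR adjusted p = 0.0107 and 0.0343), and Ccr2 was lost with lane as a random block (limma adjusted p = 0.0651). Ccl24, Cxcl16 and Cxcl14 came close, with log2 changes of 1.49, -0.77 and -1.99 (edgeR adjusted p = 0.0632, 0.0672 and 0.0689). Cxcl14 passed the threshold with DESeq2, with limma-voom and lane as a random block, and without a filter (log2 changes -1.96, -2.15 and -1.96).

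With OO chow library 5 of day 23 in place of library 12, 0 of the 44 genes were called by edgeR. Cxcl13, at 9.10 CPM in library 5, then had a log2 change of -0.96 (edgeR adjusted p = 0.46), Cx3cr1, at 2.28 CPM, one of -0.76 (0.584), Cxcr4 one of -0.60 (0.617) and Ccr2 one of -1.46 (0.248). Those of Ccl24, Cxcl16 and Cxcl14 were 0.58, -0.07 and -0.27 (edgeR adjusted p = 0.548, 0.937 and 0.911). Leaving out library 13 gave 7 calls, with Cxcl14, Cxcl16 and Ccl24 gained (edgeR adjusted p = 0.0283, 0.044 and 0.0458), and leaving out library 15 gave 3, with Ccr2 lost (edgeR adjusted p = 0.0826). Of the 10 exocrine pancreas markers 8 were called lower, at 7.73 to 13.2 CPM in OO EtOH livers, against 147 CPM in library 12, with Pnlip, Cpb1 and Try5 each at 0 in 2 of the 3 OO EtOH livers. Of 9 monocyte and macrophage markers 6 were called lower too, at 287 to 382 CPM, against 963 CPM in library 12 and 497 CPM in library 5, as were 2 of 6 Kupffer cell markers, at 504 to 649.7 CPM, against 1083 CPM in library 12 and 733 CPM in library 5, and 3 of 5 dendritic cell markers, at 11.5 to 14.3 CPM, against 32 CPM in library 12 and 22 CPM in library 5. Their part was not tested. At day 23, with 1 library a group, no test and the pancreas transcripts of library 6, Cxcl13 was at 1.21 CPM in the OO EtOH liver, against 9.10 CPM in the OO chow liver, Cx3cr1 at 0.528 CPM, against 2.28 CPM, and Ccl2 at 0.679 CPM, against 4.03 CPM.

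In CCl4 animals at day 20, ethanol changed no chemokine gene past the threshold. By edgeR 0 of 44 genes were called between CCl4 EtOH and CCl4 chow livers, against 1.27% of all genes, with 5 at an unadjusted p under 0.05. Such unadjusted counts of chemokine genes, here and below, are given without the share of all genes at that p. The counts by DESeq2 and limma-voom, here and below, are likewise given without the share of all genes these called. DESeq2 and limma-voom with lane as a random block each called 1, Cxcr2, with adjusted p of 0.0221 and 0.0242. Cxcr2 was at 1.86, 1.53 and 2.19 CPM in CCl4 EtOH livers, against 4.90 and 5.51 CPM in CCl4 chow livers, without overlap (log2 change -1.49, 95% interval -2.33 to -0.65; edgeR adjusted p = 0.107). Neutrophil markers summed to 57.2 to 165 CPM in CCl4 EtOH livers, against 221 to 227 CPM in CCl4 chow livers, and their part was not tested. Ccl5 was at 0.422, 0.429 and 0.253 CPM in CCl4 EtOH livers, against 2.41 and 1.06 CPM in CCl4 chow livers, again apart (log2 change -2.17; edgeR adjusted p = 0.0546). Cxcl2 had a log2 change of -2.30 and Ccl6 one of 0.95 (edgeR adjusted p = 0.245 and 0.296). The receptors Cx3cr1, Ccr1, Ccr2 and Cxcr4 overlapped between these groups, with Cx3cr1 at 20.2, 14.5 and 13.0 CPM in CCl4 EtOH livers, against 16.6 and 16.9 CPM in CCl4 chow livers.

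The interaction asks whether ethanol acted differently in CCl4 than in OO animals. By edgeR 0 of 44 genes were called, against 0.0135% of all genes, with 9 at an unadjusted p under 0.05. DESeq2 called 2, Cxcl13 and Cx3cr1, and limma-voom with lane as a random block called 1, Cxcl13. Cxcl13 had the smallest p, with a log2 difference of 4.08 ± 0.66 (SE; edgeR adjusted p = 0.0709), followed by Cx3cr1 at 2.41 and Cxcr4 at 1.89 (edgeR adjusted p = 0.154 and 0.203). These values rest on library 12. With library 5 in its place the differences were 1.30, 0.69 and 0.32 (edgeR adjusted p from 0.761 to 0.953). Without library 13 Cxcl13 was called, with an edgeR adjusted p of 0.0421.

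A further pair of comparisons used library 12 as control and share it with the ethanol comparison in OO animals. CCl4 chow against OO chow livers at day 20 gave 1 call of 44 (2.27%), against 0.189% of all genes. None was higher, against 0.0203% of all genes, and 1 was lower, against 0.169%. Cxcl13 was at 2.49 and 1.2 CPM in CCl4 chow livers, against 62.7 CPM in library 12, a log2 change of -5.09 ± 0.55 (SE; edgeR adjusted p = 0.00212). With library 5 in place it was -2.31 (edgeR adjusted p = 0.0536). Ccr1 and Ccr2 had log2 changes of 1.92 and 1.63 (edgeR adjusted p = 0.264 and 0.487), and with library 5 as control 2.32 and 2.35 (0.0428 and 0.0545). There were 2 calls without library 16, with Ccr1 gained at 0.0294.

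CCl4 EtOH against OO chow livers, which joins both treatments, gave 2 calls of 44 (4.55%), against 2.8% of all genes. In the higher direction 1 was called, against 1.12% of all genes, and in the lower direction 1, against 1.68%. Cxcl13 was at 2.66, 2.82 and 1.35 CPM in CCl4 EtOH livers, against 62.7 CPM in library 12 (log2 change -4.75 ± 0.46, SE; edgeR adjusted p = 0.000292). Ccr1, at 9.49, 10.5 and 12.4 CPM against 1.90 CPM in library 12, rose by 2.5 ± 0.49 (SE; edgeR adjusted p = 0.0231). It was lost without library 20 (edgeR adjusted p = 0.0525) and with lane as a random block (limma adjusted p = 0.0537), and Pf4 was close at 1.71 (0.0937). With library 5 as the control 8 genes were called, 7 of them higher. Cxcl13 was among them at -1.97, Ccr1 at 2.90 and Pf4 at 2.06 (edgeR adjusted p = 0.0345, 0.00747 and 0.0318). The number of chemokine genes called against OO chow livers therefore depended on which OO chow liver was used. The share of all genes called with library 5 is not given for this comparison, so the higher count cannot be read as particular to chemokine genes.

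OO animals of different days were compared after the data were seen. The titles give the later OO chow livers sub-study numbers and a chow arm that the day 0 livers do not carry, and that of library 12 names OO again, so these cannot be told apart from time. With OO chow livers of days 20 and 23 pooled as 1 group against OO livers of day 0, 0 of 44 genes were called by edgeR, against 0.0812% of all genes (0.0541% higher and 0.0271% lower), with 11 at an unadjusted p under 0.05 and 4 called by DESeq2 (Ccl2, Cxcl13, Cxcl16 and Cxcr4). Ccl2 was at 3.79 and 4.03 CPM in the later OO chow livers, against 0.367 and 0.479 CPM in OO livers of day 0. The days lay apart (log2 change 3.18; edgeR adjusted p = 0.149). Cxcr4 was at 4.27 and 1.43 CPM in the later livers, against 0.275 and 0.479 CPM at day 0 (log2 change 2.86; edgeR adjusted p = 0.0818), and Cxcl13 had a log2 change of 3.29 (0.115). Without library 5, 3 genes were called (Cxcl13, Cxcl16 and Cxcr4), Cxcl13 at 0.0208 and Cxcr4 at 0.00948. Ccl2 in CCl4 animals was likewise higher at day 20, at 4.85 to 6.58 CPM, and in the later OO chow livers at 3.79 and 4.03 CPM. Whether the change between days differed between the arms was also asked after the data were seen. By edgeR 0 of 44 genes were called, against 0.271% of all genes (0.142% higher and 0.129% lower), with 3 at an unadjusted p under 0.05, while DESeq2 called 3 (Ccl6, Cxcl14 and Cxcr2). Cxcr2 and Ccl6 had log2 differences of 3.75 and 2.85 between the arms (edgeR adjusted p = 0.0926 and 0.108).

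Cxcl9, Cxcl10, Cxcr3, Cxcr6, Ccr7, Ccr9, Ccl25 and Xcr1 were not called between CCl4 EtOH and OO EtOH livers. Cxcl9 and Cxcl10, interferon-induced ligands of Cxcr3, were at 4.68, 2.33 and 4.80 CPM and at 3.04, 5.58 and 2.44 CPM in CCl4 EtOH livers, against 4.86, 2.04 and 3.36 CPM and 4.16, 1.46 and 0.974 CPM in OO EtOH livers, with overlap for both. The log2 changes were 0.24 for Cxcl9 and 0.79 for Cxcl10 (95% interval -0.76 to 1.23 and -0.33 to 1.90). Without library 13, Cxcl10 was called (edgeR adjusted p = 0.0286). Cxcr3 lay between 0.297 and 0.926 CPM in all 15 libraries, with a log2 change of 0.45 in that comparison (95% interval -0.49 to 1.39). Cxcr6, a receptor of liver T and NKT cells, was at 3.50, 3.68 and 3.03 CPM in CCl4 EtOH livers, against 2.58, 2.87 and 3.19 CPM in OO EtOH livers (log2 change 0.24, 95% interval -0.29 to 0.78). Ccr7, which guides cells to lymph nodes, did not exceed 0.939 CPM. Ccr9, the gut-homing receptor of Ccl25, lay between 1.65 and 3.07 CPM and Ccl25 between 2.02 and 3.81 CPM, while Xcr1, a receptor of cross-presenting dendritic cells, reached 1.37 CPM at most. The T and NK cell markers summed to 3.54 to 4.35 CPM in CCl4 EtOH livers, against 1.88 to 2.04 CPM in OO EtOH livers.

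Of the 5 atypical receptors none was called by edgeR's fit to all 15 libraries in any comparison. Ccrl2 was called higher in CCl4 EtOH than in OO EtOH livers without library 14 (log2 change 0.88; edgeR adjusted p = 0.0412), and in the joint test Ackr3 was called without library 1 and Ackr2 without library 13 (edgeR adjusted p = 0.0305 and 0.0384). Ackr4, a scavenger of Ccl19, Ccl21 and Ccl25, lay between 3.86 and 8.52 CPM, Ackr2, a scavenger of inflammatory CC ligands, between 2.41 and 6.44 CPM, Ccrl2 between 1.78 and 3.72 CPM and Ackr1 between 0.531 and 3.07 CPM over the 15 libraries. Ackr3, which scavenges Cxcl12, was at 2.49 and 3.25 CPM in CCl4 chow livers of day 20, against 1.00 and 0.890 CPM in CCl4 livers of day 0, without overlap (log2 change 1.59, 95% interval 0.13 to 3.04; edgeR adjusted p = 0.155). In a fit on these 4 libraries alone it was called (edgeR adjusted p = 0.0295). A share of the exonic bases of Ackr1 lies in Cadm3 on the same strand and of Ackr4 in Acad11 on the other strand, so their levels are uncertain.

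Genes of the pathway downstream of the receptors were called in some of the same comparisons. Of 38 tested genes of chemokine receptor signalling, 26 were called higher and none lower in CCl4 EtOH against OO EtOH livers, against 12.7% higher and 11% lower of all genes, with a median log2 change of 0.76, against -0.04 over all genes. Among them were Dock2, a Rac activator of leukocytes (1.59; edgeR adjusted p = 5.49e-05), Gng2, a G protein subunit (2.14; 0.000208), Pik3cg, the phosphoinositide 3-kinase activated by G proteins (1.60; 0.000236), and Vav1 (1.29; 0.000439). In CCl4 chow livers of day 20 against day 0, 22 were called higher and none lower, against 7.27% higher and 4.2% lower of all genes, with a median of 1.07, against 0.02 over all genes, and Rac2, the Rac of blood cells, rose by 1.94 (edgeR adjusted p = 0.000808). At day 0 none of the 38 was called by edgeR. None was called either for ethanol in CCl4 animals, the interaction, or CCl4 chow or CCl4 EtOH against library 12. Of all genes 1.27%, 0.0135%, 0.189% and 2.8% were called there. The median log2 change against library 12 was 0.05 for CCl4 chow and 0.04 for CCl4 EtOH livers. In OO EtOH livers against library 12, 18 were called lower, against 2.42% of all genes, with Dock2 at -1.52 and Rac2 at -1.31 (edgeR adjusted p = 0.00156 and 0.00999). With library 5 in its place, tried for this list after the data were seen, 0 of the 38 were called by edgeR, against 0.264% of all genes called lower. At an unadjusted p under 0.05 there were 8 of the 38, against 1867 of all 14778 genes. Dock2 was then at -0.65 and Rac2 at -0.56 (edgeR adjusted p = 0.164 and 0.344).

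Of 42 tested genes that induce chemokines (NF-kB, interferon and cytokine genes), 5 were called higher and 2 lower in CCl4 EtOH against OO EtOH livers, where 12.7% of all genes were called higher and 11% lower, with a median log2 change of 0.09. Ifngr1, a chain of the interferon gamma receptor, rose by 1.13, Irf8, a factor of monocyte development, by 1.17 and Tlr4, the endotoxin receptor, by 1.34, while Ltbr fell by 0.50 (edgeR adjusted p = 0.000348, 0.000463, 0.0016 and 0.00845). In CCl4 chow livers of day 20 against day 0, 11 were called higher and none lower, against 7.27% and 4.2% of all genes, with a median of 0.65, among them the cytokine Il1b (2.04) and Irf8 (1.29; edgeR adjusted p = 0.00882 and 0.00264). Of 33 tested modifiers, adhesion molecules and other attractants, 17 were called higher and 3 lower in CCl4 EtOH against OO EtOH livers, against 12.7% and 11% of all genes, with a median of 0.62. They included C3ar1, a complement receptor (2.27), and Itgb2, a leukocyte integrin chain (1.54; edgeR adjusted p = 4.75e-05 and 0.000138). Between days in CCl4 animals 19 were called higher and 2 lower, against 7.27% and 4.2% of all genes, among them C5ar1, the complement receptor of neutrophils and macrophages (4.04), and Mmp9, a protease that trims chemokines (4.10; edgeR adjusted p = 0.000289 and 0.000538). Both of these were called lower in CCl4 than in OO livers at day 0, with log2 changes of -2.26 for C5ar1 and -2.01 for Mmp9 (edgeR adjusted p = 0.0113 and 0.0478).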

How the data were processed

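Sequencing libraries were prepared from liver total RNA with a TruSeq mRNA kit, per the labels' protocols. The files deposited by the authors hold whole-number read counts for each gene symbol, not normalised, in a separate table for every library. Per the submitters' processing notes, GSNAP, the mouse build mm10 and DESeq2 1.12.3 were used. Which program counted the reads, on which annotation and with which strand setting is not given in the sources used here. Between 41.4% and 53% of the reads listed fell in genes, and 18.1% to 28.8% aligned to several places. These reads and 4 further entries that name no gene were left out. Some tables carry 28D in their name for samples labelled day 20 or 23. Groups follow the labels.

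The chemokine genes, lists and comparisons were chosen with earlier results of these data known. A further gene that the symbol rule finds is not reported here and enters no chemokine count, sum or median. By the naming rule, any chemokine gene may be named, each called one is named for its comparison, a set list is described whatever the p, and of each pathway list up to 4 called genes with the smallest adjusted p are named in a comparison. edgeR 4.0.16 in R 4.3.3 fitted 1 mean per group, with TMM factors and filterByExpr leaving 14778 genes and 7 residual degrees of freedom, so a group of 1 library is assumed to vary like the rest. The code was tested on simulated counts. Exon lengths and coordinates came from GENCODE M21 (mm10), which matched 23680 symbols. The alternatives comprised RLE factors, other filters (none, or 1 CPM in 2 libraries), DESeq2 1.42.0, limma 3.58.1 (voom, with the lane in table names as a random block), fits restricted to the compared libraries, other OO controls, and leaving out single libraries. Since limma was run only with the lane block, the part of lane in a lost or gained call was not tested. The consensus correlation within lane was -0.0818. Both comparisons over time that involve OO chow livers of days 20 and 23 were added with the data in view. Libraries of a group differed by more than counting error (chi-square per degree of freedom of 3.93 for the CCl4 livers of day 0 and 19.4 to 78.4 for the other pairs).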

Additional observations from a re-analysis of the deposited data

How the results depend on the processing

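Depth limited the low genes most (18 of 62 could not be tested), and 3 comparisons had 1 control library. For 66 chemokine gene results, the alternative settings gave 782 values, each for 1 gene result under 1 setting. Of these, 665 kept direction and side of the threshold, 73 lost and 37 gained a call. In 7 of the 782 values a small uncalled change had the other sign. These were, under ethanol, Cxcl12 (log2 -0.184 to 0.047 without single libraries), Ccl2 (-0.466 to 0.062, and 0.197 with OO days merged) and Cxcl9 (-0.059 to 0.575), and between days Cxcl12 (-0.368 to 0.126). The counts of chemokine genes called under other settings are given without the matching share of all genes. Why these counts moved was not tested. DESeq2 called 1 for ethanol in CCl4, 2 for the interaction, 5 at day 0, 3 for the change by day and 4 in later OO livers. limma-voom called 1 at day 0, 1 for ethanol in CCl4, 1 for the interaction and 1 for CCl4 EtOH against OO chow. Of the calls, limma-voom lost Ccl6 and Cxcr4 at day 0, Cxcl2 and Pf4 between days in CCl4, Ccr2 for ethanol in OO and Ccr1 in the joint comparison. Under ethanol Ccl24 was lost with DESeq2 (adjusted p = 0.0764), without a filter (0.0565) and with the compared libraries alone (0.0756), as was Cx3cl1 with the last (0.0603), and Pf4 between days too (0.0821). Without a filter the interaction had 1 and the change by day 2. With the compared libraries alone there were 7 at day 0, 4 for CCl4 against OO under chow and 0 for ethanol in OO. With library 5 as control there were 2 under chow, 8 for CCl4 EtOH against OO chow and 0 for ethanol in OO, and with merged OO days 3 and 6 for the chow and the joint comparison. Leaving out single libraries gave 0 to 2 calls at day 0, 1 to 2 under chow, 7 to 12 under ethanol, 0 for ethanol in CCl4, 3 to 7 for ethanol in OO, 0 to 1 for the interaction, 5 to 12 between days in CCl4, 1 to 2 for CCl4 EtOH against OO chow, 15 to 20 for any difference, 0 for the change by day and 0 to 3 in later OO livers. No paired analysis was possible because library numbers are never shared between groups.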
